A study of Mus musculus with 6 samples.

Results

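Interferon-stimulated genes are the genes that cells switch on when they sense interferon, and 36 of them were followed here among the 35275 genes of the deposited table. They were taken by name: 26 targets of type I interferon, 6 GTPases induced mainly by interferon-gamma, 3 genes of the immunoproteasome and peptide transport, and Irf1, a transcription factor that both interferon types induce. Their mRNA was measured by RNA sequencing of epididymal adipose tissue, a visceral fat depot, taken from male mice of the C57BL/6 strain. The 3 control samples were labelled Tfrcfl/fl, that is, both copies of Tfrc carry loxP sites, and the 3 knockout samples were labelled TfrcAKO. The labels do not spell out AKO and name no Cre driver. Mice of both groups were 2 months old when a diet with 60% fat began, stayed on it for 10 weeks and are labelled 4.5 months old. All 36 genes were at 0.5 FPKM or more in at least 3 samples, so none was left out as not measured.

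Type I interferons signal through a receptor made of IFNAR1 and IFNAR2, whose kinases JAK1 and TYK2 lead to a complex, with STAT2 and IRF9 in it, that binds the interferon-stimulated response element. Interferon-gamma, made chiefly by T cells and natural killer cells, acts through IFNGR1 and IFNGR2 and the kinases JAK1 and JAK2 on genes with a gamma-activated site. In fat tissue, macrophages, endothelial cells and adipocytes can all respond to interferons.

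Across the transcriptome limma, a linear model with moderated variances, tested 14383 genes on log2(FPKM + 0.5). At a Benjamini-Hochberg adjusted p under 0.05 it called 43.5% of them, with 21.9% higher in the knockout and 21.6% lower. The groups did not overlap in 60.1% of tested genes. The median log2 fold change over all tested genes was −0.03. Depth ranged from 25252839 to 30650624 reads assigned to genes per sample. Knockout replicate 3 stood apart on the first principal component, which held 78.3% of the variance, at 60.9 against 21.7 and 25.2 for the other two knockout samples. Tfrc was lower in every knockout sample, at 7.10, 8.27 and 9.50 FPKM against 11.1, 13.2 and 11.9 FPKM in the control samples (log2 fold change −0.52 ± 0.12 SE, limma adjusted p = 0.0147). The labelled tissue was checked against its markers: the summed FPKM of 10 mature adipocyte genes was between 6861 and 9987 in control and between 18026 and 23861 in knockout samples, whereas 5 epididymis markers summed to at most 0.220 FPKM.

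The promoters of these genes carry the elements that interferon signalling uses, and the stretches shown are from members that the results turn on. RefSeq windows (GRCm38.p6, the assembly of mm10) of 300 bases, from 250 before to 50 after the transcription start, were matched by symbol for 27 of the 36 genes. Both strands were searched for GAAANNGAA, the core of the interferon-stimulated response element, and for TTCNNNGAA, the gamma-activated site. Matches of the first can overlap one another. Each stretch is written 5′ to 3′ on the strand of its gene, with the matched bases in capitals. The stretches of Gbp2, Gbp3 and Gbp7 come from neighbouring genes that were higher in the knockout, those of Irgm1 and Oas1a from genes that were lower, and those of Isg15 and Irf1 from widely used markers of each interferon response:
Gbp2 (chr3:142620585-142620633, plus strand): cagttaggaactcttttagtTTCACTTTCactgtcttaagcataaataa
Gbp3 (chr3:142559980-142560034, plus strand): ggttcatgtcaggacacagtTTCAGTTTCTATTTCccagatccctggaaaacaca
Gbp7 (chr3:142530220-142530302, plus strand): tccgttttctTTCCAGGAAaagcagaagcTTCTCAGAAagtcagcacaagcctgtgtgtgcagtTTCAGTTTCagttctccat
Irgm1 (chr11:48871421-48871470, minus strand): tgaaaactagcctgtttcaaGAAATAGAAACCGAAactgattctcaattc
Oas1a (chr5:120907526-120907555, minus strand): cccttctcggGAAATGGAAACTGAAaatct
Isg15 (chr4:156200856-156200916, minus strand): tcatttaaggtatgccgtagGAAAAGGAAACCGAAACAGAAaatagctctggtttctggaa
Irf1 (chr11:53769904-53769952, plus strand): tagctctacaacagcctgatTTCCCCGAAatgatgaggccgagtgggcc

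In Gbp2 the capitals mark 1 response element core, and in Gbp3, Irgm1 and Oas1a 2 overlapping cores each. The window of Oas1a also holds a gamma-activated site, from −98 to −90 bases of the start, outside the stretch shown. Gbp7 holds 2 gamma-activated sites followed by 1 core, Isg15 holds 3 overlapping cores, and Irf1 holds a gamma-activated site alone. Of the 27 genes with a window, 15 (55.6%) had the core and 9 (33.3%) the gamma-activated site, beside 9.8% and 9.6% of all 27025 genes with windows. All 6 interferon-gamma GTPases had the core and 3 had the gamma-activated site. Of 17 type I targets with a window, 9 had the core and 4 the gamma-activated site. The core was thus present in Gbp3, which rose, and in Irgm1 and Oas1a, which fell. Oasl1, the most strongly lowered member, had neither pattern in its window. A match of letters is a description of the sequence, not a measured binding site.

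**Figure D1:**
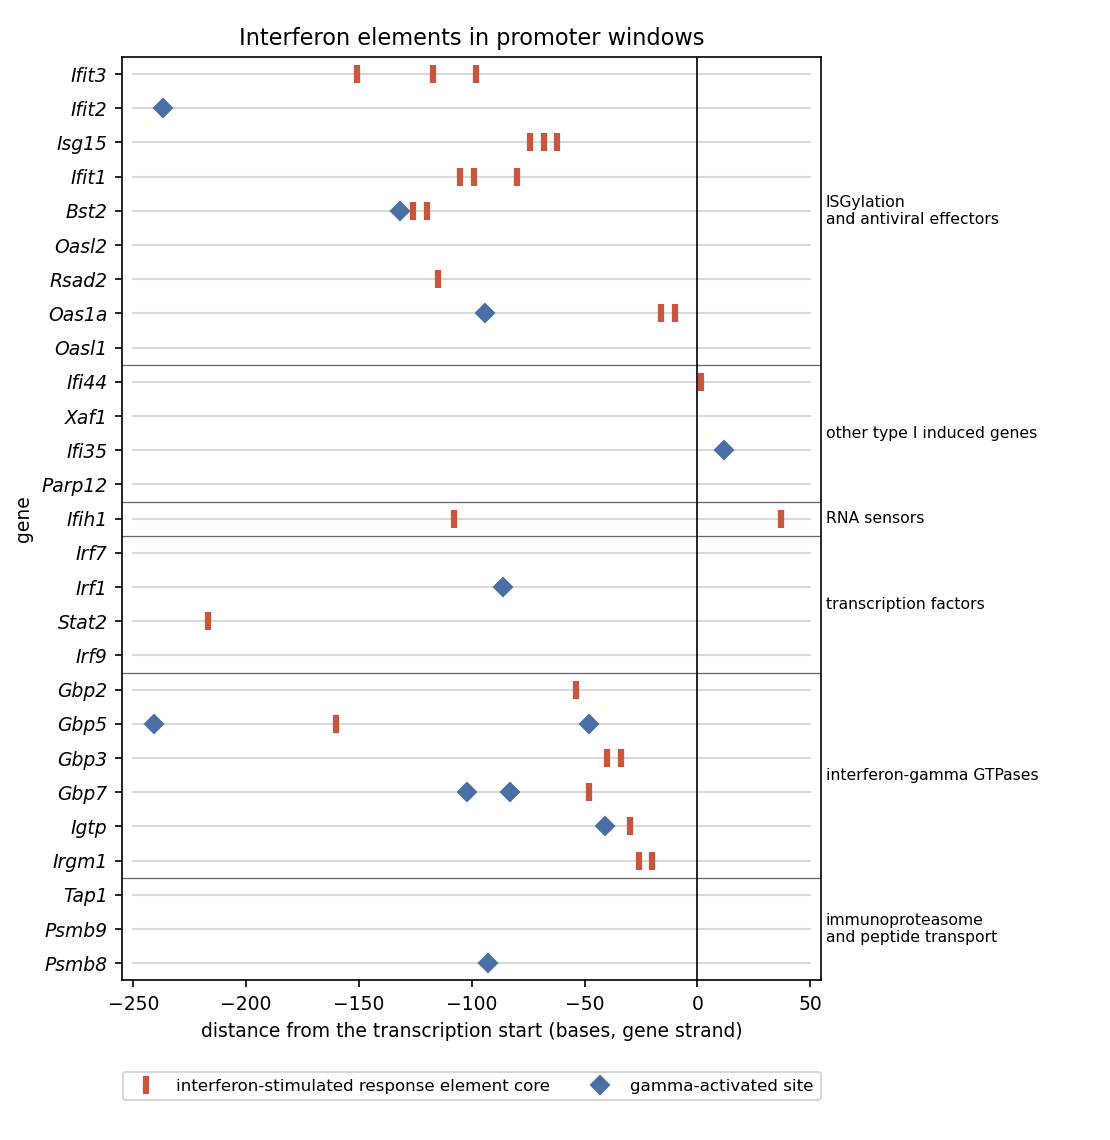
Positions of the interferon-stimulated response element core (red bars) and the gamma-activated site (blue diamonds) in the promoter windows of the 27 genes with one, in bases from the transcription start on the strand of the gene, with all RefSeq starts of a gene on 1 line. All 6 GTPases carry at least 1 core, and the 3 genes of the immunoproteasome and peptide transport carry none.

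Of the 36 genes, 7 rose and 4 fell in the knockout, beside 21.9% and 21.6% of all tested genes, and 25 were not called. The share called was 30.6%, against 43.5% of all tested genes. The median log2 fold change was 0.20, beside −0.03 over all tested genes. In 13 genes every knockout sample lay above every control sample, in 5 every knockout sample lay below, and in 18 the groups overlapped; without overlap were 60.1% of all tested genes. All 4 guanylate-binding proteins rose, while in the oligoadenylate synthetase family Oas1a and Oasl1 fell and none rose; this family was set apart after its values were seen. Every gene of the set except Oasl1 differed by less than 1 on the log2 scale.

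The 26 type I targets and the 6 interferon-gamma GTPases were summarised separately. Among the type I targets 3 rose, 3 fell and 20 were not called, beside 21.9% of all tested genes called higher and 21.6% called lower. The median log2 fold change of the type I targets was 0.13, with a range from −1.19 to 0.57. Among the GTPases 4 rose, 1 fell and 1 was not called, beside the same 21.9% and 21.6%. The median of the GTPases was 0.50, with a range from −0.29 to 0.77. The summed level of the type I targets was 248 ± 5.01 FPKM in control and 251 ± 18.3 FPKM in knockout samples (SD, n = 3 each). Bst2, which was not called, was the largest part of this sum, with means of 74.5 and 71.3 FPKM in control and knockout samples. The summed level of the GTPases was 42.0 ± 1.33 FPKM in control and 59.9 ± 8.41 FPKM in knockout samples (SD, n = 3 each). Gbp2 was the largest part of the GTPase sum and of its difference, with means of 15.5 and 27.0 FPKM in control and knockout samples. By sample the GTPases summed to 43.5, 40.9 and 41.7 FPKM in control replicates 1, 2 and 3 and to 61.0, 51.0 and 67.7 FPKM in knockout replicates 1, 2 and 3. The groups did not overlap in this sum, and knockout replicate 2 was the closest to the controls. The type I sums did overlap, from 243 to 253 FPKM in control and from 234 to 270 FPKM in knockout samples.

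**Figure D2:**
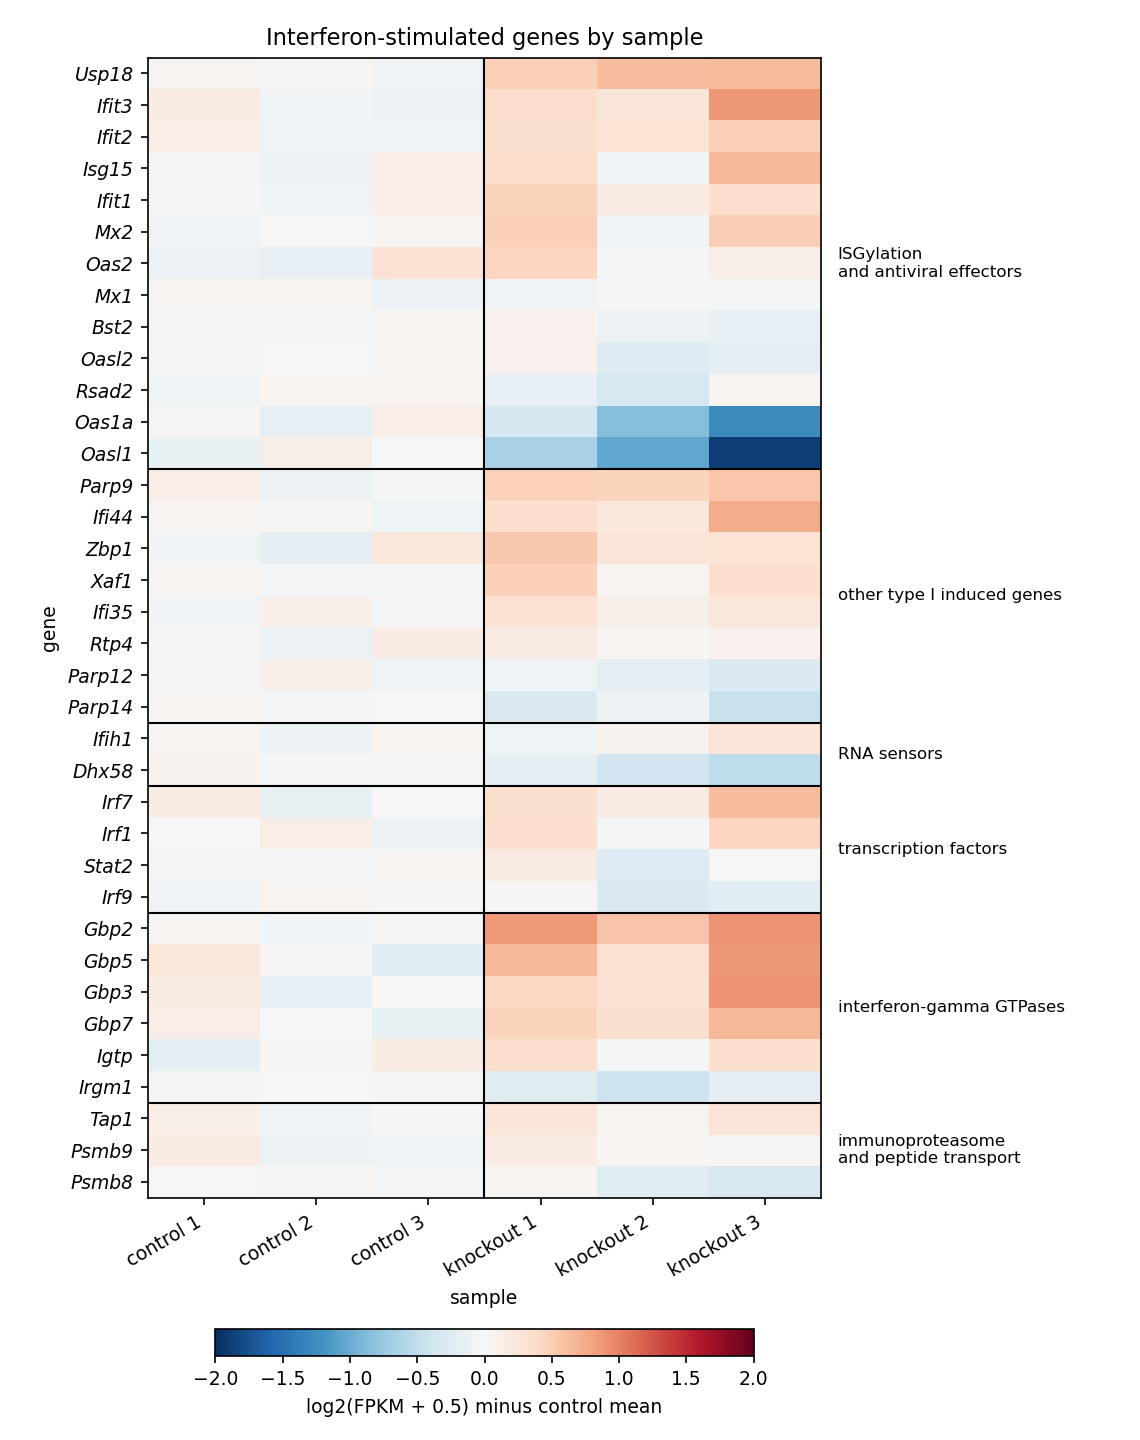
Each of the 36 genes (rows, by role) in each of the 6 samples (columns), as log2(FPKM + 0.5) minus the mean of the control samples; red is higher and blue is lower. The 4 guanylate-binding proteins are red in all 3 knockout samples, and Oasl1 and Oas1a are blue there, most deeply in knockout replicate 3.

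The ligands of these pathways were near the limit of detection. None of 9 interferon genes passed the filter, 5 of them were at 0 in all 6 samples, and none had more than 5 reads in any sample. Ifng, which encodes interferon-gamma, had 2, 1 and 2 reads in control replicates 1, 2 and 3 and 3, 4 and 2 reads in knockout replicates 1, 2 and 3, or 14 reads in all. For Ifng 3 reads correspond to between 0.0811 and 0.0984 FPKM, so a difference in its level was not detectable at this depth. Ifnb1, which encodes interferon-beta, had 1 read in control replicate 2 and 0 in the others. Ifnk had 5 reads, all in control replicate 1.

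Of 5 tested receptor genes, 3 fell and none rose, beside 21.6% of all tested genes called lower. Ifngr2, the signalling chain of the interferon-gamma receptor, was at 27.3, 31.1 and 31.0 FPKM in the control samples and at 19.46, 19.95 and 14.77 FPKM in the knockout samples (log2 fold change −0.72 ± 0.13 SE, limma adjusted p = 0.0073). Il10rb, a chain shared by the interferon-lambda and interleukin-10 receptors, fell by 0.92 on the log2 scale, and Ifnar1, a chain of the type I receptor, fell by 0.48. The limma adjusted p of Ifnar1 was 0.0125, and 0.0538 without control replicate 2. Ifngr1, the ligand-binding chain for interferon-gamma, had a log2 fold change of 0.29 ± 0.10 and was not called (limma adjusted p = 0.0509).

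Of the signalling relay, Tyk2, a kinase of the type I receptor, fell by 0.48, and Jak1, Jak2 and Stat3 were not called, with log2 fold changes of −0.13, 0.01 and −0.09. Of 6 tested feedback inhibitors 4 fell and none rose, beside 21.6% of all tested genes called lower. Ptpn6, a phosphatase known from blood cells, had the largest change, from 42.1 ± 1.48 FPKM in control to 14.6 ± 6.44 FPKM in knockout samples (SD, n = 3 each), and fell by 1.61 on the log2 scale. Pias1, a SUMO ligase that restrains cytokine signalling, and Ptpn2, a phosphatase of JAK1, fell by 0.44 and 0.36. Their limma adjusted p-values were 0.0256 and 0.0259, and without control replicate 1 they were 0.0575 and 0.0752, without control replicate 3 0.0706 and 0.0715. That of Pias1 was 0.0922 without control replicate 2, and that of Ptpn2 was 0.0505 without knockout replicate 2. Trex1, the seventh of the list, was listed at 0 in every sample, and all its exons lie within Atrip.

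None of the 4 transcription factors among the members was called, beside 43.5% of all tested genes. Irf7, which amplifies type I interferon production, was at 10.1, 8.08 and 9.04 FPKM in the control samples and at 11.5, 10.2 and 14.2 FPKM in the knockout samples. All 3 knockout values lay above the controls, that of replicate 2 only just and that of replicate 3 the furthest, with a log2 fold change of 0.37 ± 0.14 SE and a limma adjusted p of 0.0705. Irf1, an early interferon target, was at 17.7, 19.4 and 16.4 FPKM in control and at 22.5, 17.5 and 24.2 FPKM in knockout samples. Knockout replicate 2 of Irf1 lay within the control range, and its log2 fold change was 0.25 ± 0.13 SE (limma adjusted p = 0.165). Irf9, the DNA-binding part of the type I complex, was at 10.1, 11.1 and 10.8 FPKM in control and at 10.8, 8.61 and 9.01 FPKM in knockout samples. Its partner Stat2 was at 11.0, 11.0 and 11.4 FPKM in control and at 12.7, 9.30 and 11.2 FPKM in knockout samples. Both overlapped between the groups, with log2 fold changes of −0.17 ± 0.10 SE for Irf9 and −0.02 ± 0.11 SE for Stat2.

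Of the pair of cytoplasmic RNA sensors, Dhx58 (LGP2; ENSMUSG00000017830, mm10 chromosome 11, 100694884 to 100704271, minus strand) fell. It was at 5.27, 4.84 and 4.85 FPKM in the control samples and at 4.36, 3.72 and 3.35 FPKM in the knockout samples. The groups did not overlap, and the log2 fold change was −0.35 ± 0.11 SE (limma adjusted p = 0.037). The call was lost on leaving out any one sample other than knockout replicate 1, with adjusted p-values between 0.0644 and 0.112 in those 5 fits. Ifih1 (MDA5), the sensor of long double-stranded RNA, was at 5.37, 4.74 and 5.30 FPKM in control and at 4.80, 5.38 and 6.14 FPKM in knockout samples. Its values overlapped and its log2 fold change was 0.07 ± 0.11 SE. Of 15 other genes of nucleic acid sensing and interferon induction 9 fell and none rose, beside 21.6% of all tested genes called lower. Among them were Aim2, a DNA sensor of the inflammasome (−1.13 ± 0.16), Tbk1, the kinase that activates IRF3 (−0.49 ± 0.09), and Irf8, a factor of myeloid cells (−1.04 ± 0.20, each a log2 fold change with its SE).

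The 13 genes of ISGylation, the attachment of the ubiquitin-like protein ISG15, and of antiviral defence had 2 members that rose, Usp18 and Ifit2, and 2 that fell, Oasl1 and Oas1a. Of all tested genes 21.9% were called higher and 21.6% lower. Usp18 (ENSMUSG00000030107, chromosome 6, 121245906 to 121270916, plus strand) encodes the protease that removes ISG15 and also restrains type I receptor signalling. It was at 2.48, 2.43 and 2.24 FPKM in the control samples and at 3.50, 3.92 and 3.96 FPKM in the knockout samples. Every knockout sample lay above the controls, the log2 fold change was 0.57 ± 0.10 SE (limma adjusted p = 0.00614), and the gene stayed past the threshold in all 6 fits that left out 1 sample. Ifit2 (ENSMUSG00000045932, chromosome 19, 34550694 to 34576419, plus strand), of a family that binds viral RNA, was at 4.16, 3.55 and 3.60 FPKM in control and at 4.85, 4.64 and 5.40 FPKM in knockout samples. The groups lay close to each other without overlap, and the log2 fold change was 0.36 ± 0.10 SE (limma adjusted p = 0.0275). The call of Ifit2 was lost without control replicate 2, control replicate 3, knockout replicate 1 or knockout replicate 3, at adjusted p-values of 0.0939, 0.0953, 0.0533 and 0.0516.

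Oasl1 (ENSMUSG00000041827, chromosome 5, 114923240 to 114937915, plus strand) belongs to the oligoadenylate synthetase family, whose active members make the short adenylate chains that switch on RNase L; OASL1 lacks that activity and is known to restrain Irf7 translation. Control replicates 1, 2 and 3 had 6.52, 7.85 and 7.17 FPKM. Knockout replicates 1, 2 and 3 had 4.37, 3.21 and 1.58 FPKM. All knockout samples were below all control samples, with knockout replicate 3 the lowest. The log2 fold change was −1.19 ± 0.29 SE (limma adjusted p = 0.0183), and −0.85 without knockout replicate 3. Leaving out control replicate 2 or 3 gave adjusted p-values of 0.0692 and 0.0609.

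Oas1a (ENSMUSG00000052776, chromosome 5, 120896256 to 120907521, minus strand), an active synthetase, was at 13.1, 11.5 and 14.1 FPKM in the control samples and at 10.0, 6.85 and 5.04 FPKM in the knockout samples. The groups did not overlap, although knockout replicate 1 lay close to control replicate 2. The log2 fold change was −0.82 ± 0.23 SE (limma adjusted p = 0.026). The adjusted p was 0.0712, 0.0605 and 0.0875 without control replicates 1, 2 and 3 and 0.066 without knockout replicate 2. Of the 50-base words in Oas1a exons 57.6% also occur in other genes, chiefly Oas1g, so reads may be shared between these copies. Oas1g and Oas3, which are not among the 36 genes, also fell, by 0.58 and 0.61 on the log2 scale, and Oas1b had a log2 fold change of 0.22 and was not called. Without control replicates 1, 2 and 3 in turn the limma adjusted p was 0.0633, 0.0551 and 0.0872 for Oas1g and 0.0626, 0.0685 and 0.0888 for Oas3, and it was 0.0608 for Oas3 without knockout replicate 2. The other two family members followed here were not called: Oas2 had a log2 fold change of 0.17 ± 0.17 SE and Oasl2 of −0.12 ± 0.10 SE.

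Bst2 (tetherin, which holds budding virus at the cell surface) was the most abundant of the 36 genes. It was at 73.6, 73.5 and 76.5 FPKM in the control samples and at 79.3, 68.6 and 66.2 FPKM in the knockout samples. The values of the groups interleaved, and the log2 fold change was −0.07 ± 0.09 SE (limma adjusted p = 0.573). Isg15 itself was at 6.17, 5.84 and 7.0 FPKM in control and at 8.33, 6.06 and 10.2 FPKM in knockout samples. Its knockout replicate 2 lay inside the control range, and the log2 fold change of 0.32 ± 0.18 SE was not called (limma adjusted p = 0.185). Ifit1 and Ifit3, the neighbours of Ifit2 within 99.3 kb of chromosome 19, had log2 fold changes of 0.32 ± 0.12 and 0.49 ± 0.17 SE, with limma adjusted p-values of 0.0663 and 0.0613. Ifit3 was at 10.5 and 9.66 FPKM in knockout replicates 1 and 2 but at 15.2 FPKM in knockout replicate 3, beside 7.47 to 9.19 FPKM in control samples. Of its 50-base words 51.2% also occur elsewhere, chiefly in Ifit3b. Mx1 and Mx2, of a family of GTPases whose active forms block incoming virus, had log2 fold changes of −0.05 ± 0.11 and 0.30 ± 0.18 SE. GENCODE M21 lists Mx2 as a polymorphic pseudogene, that is, intact in only some mouse strains, and the function of either protein was not measured here. Rsad2 (viperin) had a log2 fold change of −0.14 ± 0.12 SE. None of these genes was called.

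Of 8 other type I induced genes only Parp9 rose and none fell, beside 21.9% and 21.6% of all tested genes. Parp9 (ENSMUSG00000022906, chromosome 16, 35938470 to 35972605, plus strand) encodes a macrodomain protein that acts with the ubiquitin ligase DTX3L. It was at 14.0, 11.8 and 12.6 FPKM in the control samples and at 17.7, 17.5 and 18.9 FPKM in the knockout samples. The knockout samples were tightly grouped and all above the controls, with a log2 fold change of 0.48 ± 0.08 SE and a limma adjusted p of 0.00667. The call was kept in all 6 fits without 1 sample. Of its exon bases 9.4% overlap Dtx3l on the opposite strand. Parp14, a related ADP-ribosyltransferase that shares 139.7 kb of chromosome 16 with Parp9, was lower in the knockout samples. It was at 12.0, 11.3 and 11.6 FPKM in control and at 9.38, 10.8 and 8.46 FPKM in knockout samples. No knockout sample of Parp14 reached the controls, but its log2 fold change of −0.28 ± 0.10 SE was not called (limma adjusted p = 0.0583).

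Ifi44, a cytoplasmic protein named for its induction, was close to the filter, at 0.574, 0.548 and 0.476 FPKM in control and at 0.803, 0.690 and 1.23 FPKM in knockout samples. Ifi35, a leucine zipper protein, was at 10.8, 12.2 and 11.0 FPKM in control and at 13.9, 12.3 and 13.3 FPKM in knockout samples. In both genes the knockout samples lay above the controls, and neither was called, with log2 fold changes of 0.43 ± 0.17 and 0.21 ± 0.08 SE and limma adjusted p-values of 0.0811 and 0.07. Of the exon bases of Ifi35 16.8% overlap Gm11626 on the opposite strand. Rtp4 shares 13.9% of its exon bases with Gm45338. The others of this group were not called either: Zbp1, a sensor of Z-form nucleic acids, had a log2 fold change of 0.36 ± 0.15 SE, Xaf1, an antagonist of apoptosis inhibitors, of 0.29 ± 0.12, Rtp4, a chaperone of receptors, of 0.09 ± 0.09, and Parp12, an ADP-ribosyltransferase, of −0.18 ± 0.09.

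**Figure D3:**
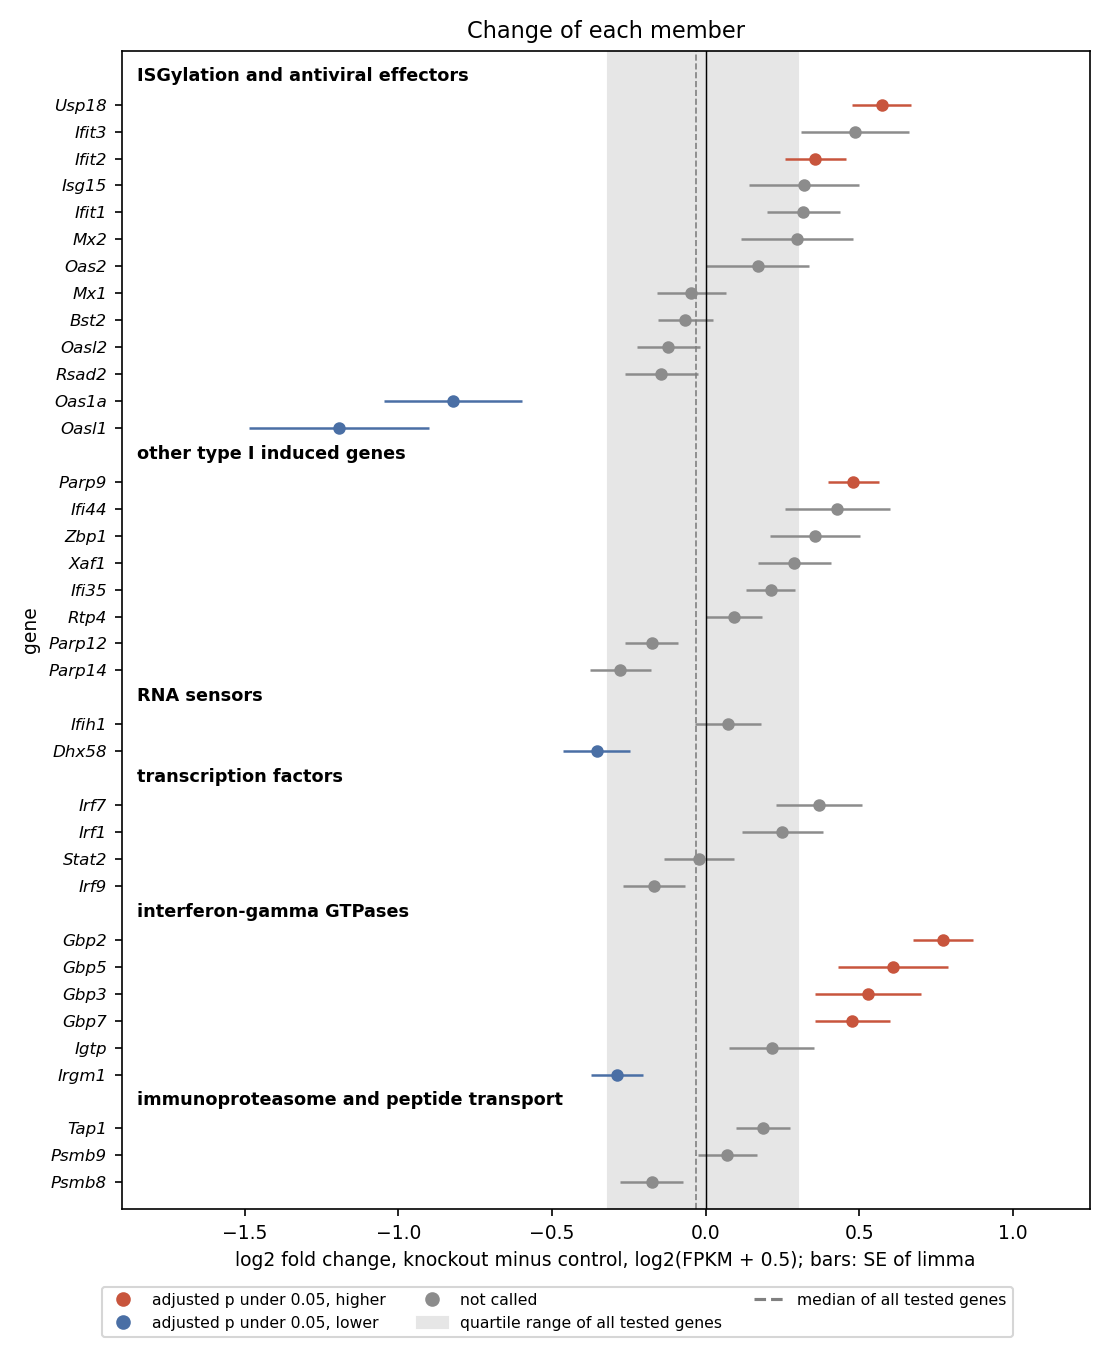
Log2 fold change of each of the 36 genes (knockout minus control on log2(FPKM + 0.5), bars are the SE of limma), by role. Red and blue points are the 7 genes that rose and the 4 that fell, grey points are genes that were not called, and the grey band spans the quartiles of all tested genes, from −0.32 to 0.30.

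The interferon-gamma GTPases hold the 2 largest increases of the set, in Gbp2 and Gbp5. Guanylate-binding proteins coat pathogens and their vacuoles and help to start inflammasome signalling, and the 4 followed here lie together within 141.1 kb of chromosome 3. Gbp2 (ENSMUSG00000028270, 142620602 to 142638008, plus strand) had 15.9, 15.0 and 15.7 FPKM in the control samples. The knockout samples, in replicate order, had 28.3, 23.3 and 29.4 FPKM. The control samples were within 1 FPKM of each other and every knockout sample was well above them. The log2 fold change was 0.77 ± 0.10 SE (limma adjusted p = 0.00391). Without 1 sample the log2 fold change stayed between 0.71 and 0.87, and the gene was called in all 6 such fits.

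Gbp7 (ENSMUSG00000040253, 142530338 to 142550083, plus strand) was at 4.55, 4.14 and 3.72 FPKM in control and at 5.83, 5.25 and 6.85 FPKM in knockout samples. Gbp3 (ENSMUSG00000028268, 142560052 to 142573209, plus strand) was at 7.25, 5.64 and 6.36 FPKM in control and at 8.66, 7.89 and 12.3 FPKM in knockout samples. Of the exon bases of Gbp7 11.3% overlap Gm43802 on the same strand. In neither gene did the groups overlap, and in both knockout replicate 3 was highest and knockout replicate 2 lowest of the knockout samples. The log2 fold change of Gbp7 was 0.48 ± 0.12 SE (limma adjusted p = 0.0196), and leaving out control replicate 2 or 3 gave adjusted p-values of 0.065 and 0.0735. The log2 fold change of Gbp3 was 0.53 ± 0.17 SE (limma adjusted p = 0.0451) and 0.35 without knockout replicate 3. Its adjusted p was 0.0599, 0.142 and 0.115 without control replicates 1, 2 and 3 and 0.0597 without knockout replicate 1.

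The row named Gbp5 was at 3.12, 2.68 and 2.17 FPKM in control and at 4.42, 3.39 and 5.22 FPKM in knockout samples. All knockout values were above all control values. The log2 fold change was 0.61 ± 0.18 SE (limma adjusted p = 0.0316). The adjusted p was 0.0869 and 0.102 without control replicates 2 and 3 and 0.0714 and 0.0544 without knockout replicates 1 and 3. The identifier of this row, ENSMUSG00000040264, is that of Gbp2b in GENCODE M21, and its deposited position, 142496934 to 142619179 on chromosome 3, starts inside Gbp5 and ends with Gbp2b. Gbp5 and Gbp2b therefore cannot be told apart in this row, and the promoter window counted for it is that of Gbp5.

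The immunity-related GTPases Irgm1 and Igtp, which act on vacuoles and autophagy, are induced by the same cytokine; Irgm1 fell and Igtp was not called. Irgm1 (ENSMUSG00000046879, chromosome 11, 48861968 to 48871683, minus strand) was at 7.44, 7.36 and 7.07 FPKM in control and at 6.05, 5.34 and 6.30 FPKM in knockout samples. It was lower in all 3 knockout samples than in any control sample, and fell by 0.29 ± 0.08 (SE) on the log2 scale (limma adjusted p = 0.0328). The call was lost on leaving out any one sample other than knockout replicate 3, at adjusted p-values between 0.0562 and 0.0975 in those 5 fits, and with median-of-ratios scaling (0.0534). Igtp was at 5.24, 6.09 and 6.68 FPKM in control and at 7.74, 5.81 and 7.68 FPKM in knockout samples. Knockout replicate 2 of Igtp lay within the control range, and its log2 fold change of 0.22 ± 0.14 SE was not called (limma adjusted p = 0.243).

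Other interferon-inducible GTPases outside the 36 genes were listed for comparison. Of 10 tested, 5 rose and none fell, beside 21.9% of tested genes called higher. Gbp11 was at 0.649, 0.670 and 0.391 FPKM in control and at 4.19, 1.36 and 1.97 FPKM in knockout samples. Its log2 fold change was 1.39 ± 0.34 SE (limma adjusted p = 0.0172). Its knockout replicate 1 was far above the other two, and the adjusted p was 0.0529 and 0.0646 without control replicates 2 and 3. Gbp4 rose by 0.85 ± 0.23 (SE) on the log2 scale, with a limma adjusted p of 0.0231 and of 0.0626, 0.0708 and 0.0724 without control replicates 1, 2 and 3. The row named Gbp6 rose by 0.93 ± 0.13 (SE) on the log2 scale. Its identifier is that of Gm43302 in GENCODE M21, and 70.7% of its 50-base words occur elsewhere, so it may hold reads of related copies. Gbp9 and Tgtp2 rose by 0.43 and 0.62 on the log2 scale. Without control replicates 2 and 3 the limma adjusted p was 0.095 and 0.109 for Gbp9 and 0.073 and 0.0664 for Tgtp2, and without knockout replicates 2 and 3 it was 0.0559 and 0.0563 for Gbp9. In addition 86.6% of the 50-base words of Tgtp2 also occur elsewhere, chiefly in Tgtp1.

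**Figure D4:**
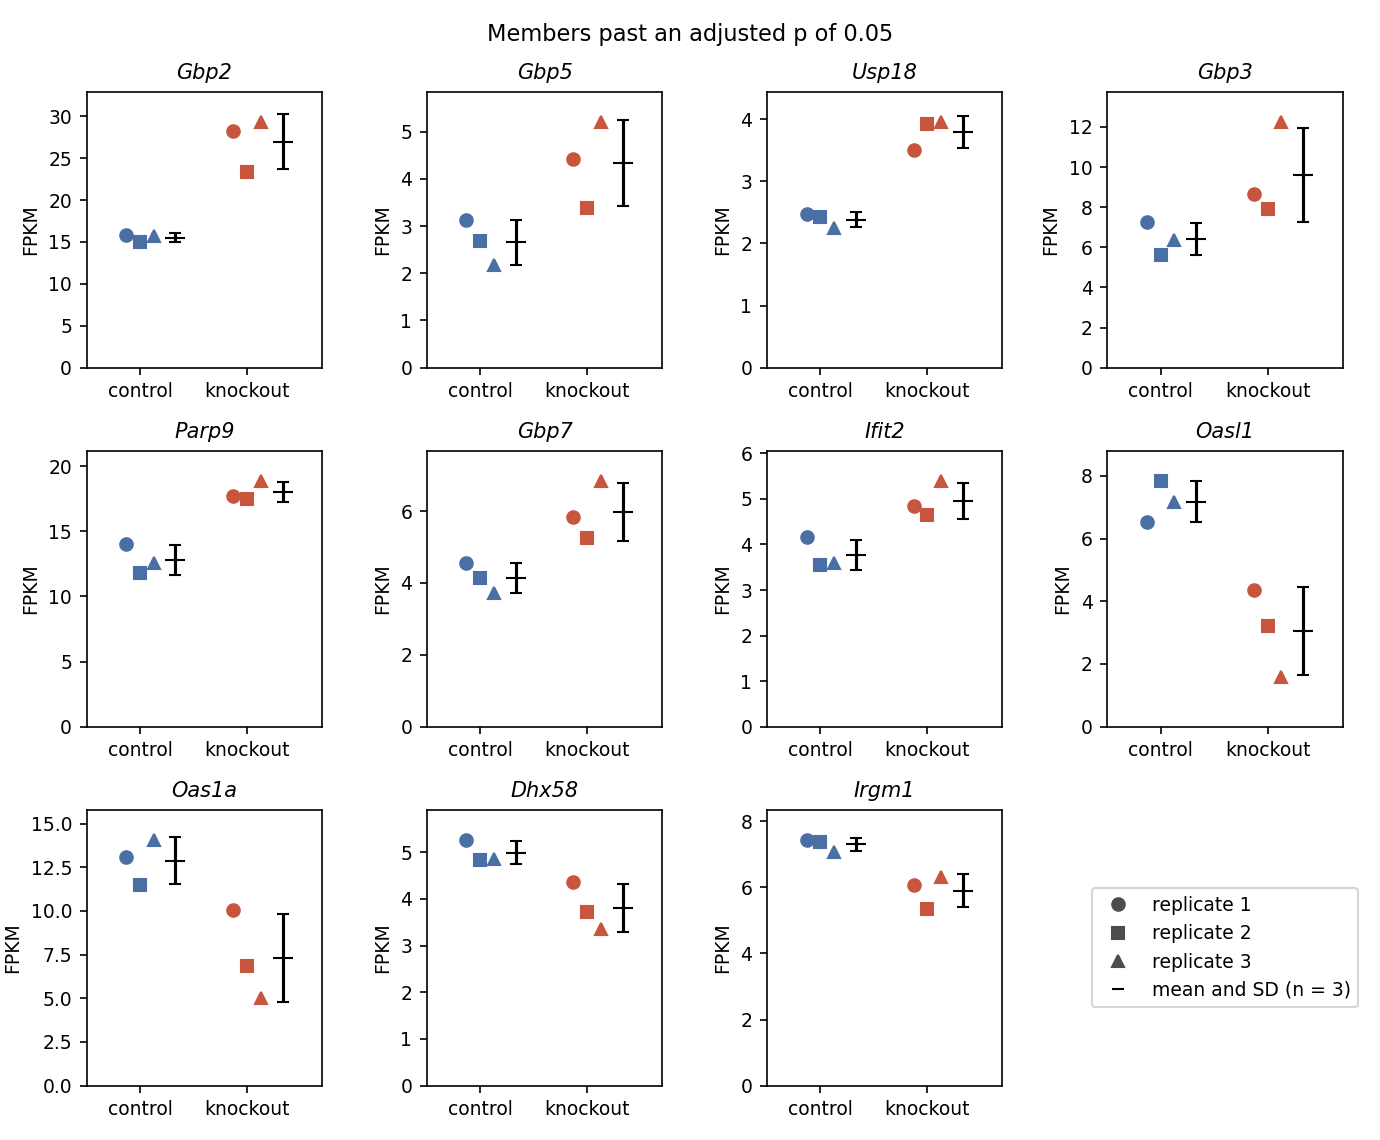
FPKM (vertical axis from 0) of the 11 called genes in the 3 control (blue) and 3 knockout (red) samples, with marker shapes for the replicate numbers and the mean and SD (n = 3) beside them. In all 11 genes the groups do not overlap, and knockout replicate 3 is the most distant from the controls in all of them except Irgm1.

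Interferon-gamma also induces the inducible proteasome subunits Psmb8 and Psmb9 and the peptide transporter Tap1, which lie together within 19.5 kb of the class II region on chromosome 17. None of the 3 was called, beside 43.5% of all tested genes. Psmb8 was at 14.6, 14.7 and 14.3 FPKM in control and at 14.9, 12.3 and 11.5 FPKM in knockout samples, and Psmb9 was at 8.90, 7.35 and 7.48 FPKM in control and at 8.80, 8.14 and 7.99 FPKM in knockout samples. Tap1 was at 11.3, 10.0 and 10.4 FPKM in control and at 12.6, 11.0 and 12.8 FPKM in knockout samples. The groups overlapped in each of them, with log2 fold changes of −0.18 ± 0.10 for Psmb8, 0.07 ± 0.09 for Psmb9 and 0.19 ± 0.09 for Tap1 (SE). Of the exon bases of Psmb8 14.7% overlap Gm20496 on the opposite strand. Psmb9 and Tap1 start head to head and their exons overlap on opposite strands. Of 11 other class I presentation genes 2 rose and 1 fell, beside 21.9% and 21.6% of all tested genes. Nlrc5, the activator of class I genes, and Tapbp, which edits class I peptides, rose by 0.33 and 0.23 on the log2 scale, and the nonclassical class I gene H2-T23 fell by 0.47. Of the exon bases of Tapbp 24.9% overlap Gm19412 on the opposite strand. Each of these calls was lost without any 1 of the control replicates, with limma adjusted p-values between 0.0623 and 0.131 in those fits.

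Further interferon targets changed in both directions. Of 30 other tested interferon-stimulated genes 6 rose and 6 fell, beside 21.9% of tested genes called higher and 21.6% called lower. Ifi27, a mitochondrial protein, rose from 241 ± 27.8 to 430 ± 33.4 FPKM, Isg20, an exonuclease, from 5.52 ± 1.02 to 10.9 ± 0.527 FPKM, and Lgals3bp, a secreted glycoprotein, from 134 ± 13.3 to 194 ± 2.60 FPKM (SD, n = 3 each). Their log2 fold changes were 0.84, 0.93 and 0.54. Besides Oas1g and Oas3, the genes that fell were Slfn2, Samhd1, Tor3a and Trim30a, with log2 fold changes of −1.32, −0.77, −0.53 and −0.45. Slfn2 had the largest change of the list, from 56.6 ± 2.49 to 23.4 ± 8.11 FPKM (SD, n = 3 each). Of 7 tested targets of interferon-gamma other than GTPases 2 rose and 2 fell, near the 21.9% and 21.6% of all tested genes. Cxcl9, a chemokine that draws T cells, was at 5.14, 4.16 and 4.82 FPKM in control and at 8.57, 7.16 and 9.01 FPKM in knockout samples. Its log2 fold change was 0.75 ± 0.12 SE (limma adjusted p = 0.00542). Nos2, the inducible nitric oxide synthase, rose by 0.80 ± 0.24 (SE) on the log2 scale, with an adjusted p between 0.0696 and 0.115 in the 3 fits without 1 control replicate. Serpina3g and Ccl5 fell by 1.03 and 0.88 on the log2 scale. The limma adjusted p of Ccl5 was 0.11, 0.126 and 0.0611 without control replicates 1, 2 and 3 and 0.0554 without knockout replicate 2, and its log2 fold change was −0.57 without knockout replicate 3. Over the 89 tested genes of the wider interferon pathway 16 rose and 26 fell, beside 21.9% and 21.6% of all tested genes. The median log2 fold change of the 89 genes was −0.08, beside −0.03 over all tested genes.

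The cell types that could carry these transcripts also differed between the groups, and bulk tissue cannot tell fewer cells of a type from less RNA per cell. The summed FPKM of 10 macrophage markers was 4324, 5236 and 4723 in control replicates 1, 2 and 3 and 2219, 2040 and 948 in knockout replicates 1, 2 and 3, and 9 of the 10 fell. The 6 endothelial markers summed to between 85.7 and 104 FPKM in control samples and to 244, 192 and 290 FPKM in knockout replicates 1, 2 and 3, and all 6 rose. Of 10 mature adipocyte markers 9 rose. Of all tested genes 21.9% were called higher and 21.6% lower. The macrophage sum was lowest in knockout replicate 3, the sample in which Oasl1 and Oas1a were lowest. The endothelial sum was highest in that sample and lowest among the knockouts in replicate 2, the order in which the guanylate-binding proteins stood. Other lists shared these orders. In knockout replicates 1, 2 and 3 the fibroblast markers summed to 1618, 1493 and 969 FPKM and the B cell markers to 452, 399 and 554 FPKM. The adipocyte sum, at 18026, 18600 and 23861 FPKM, was lowest among the knockouts in replicate 1. The part of cell type amounts in these results was not tested.

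Markers of cells known to make interferon were summed in the same way. The 10 T cell markers summed to between 41.5 and 48.4 FPKM in control and between 23.7 and 35.6 FPKM in knockout samples. Of these markers 2 fell and none rose, near the 21.6% of all tested genes called lower. Thy1, which fell, makes up most of the T cell sum. Its means were 29.69 FPKM in control and 17.52 FPKM in knockout samples. In 7 of the 10 T cell markers the groups overlapped, so the lower sum does not describe the list as a whole. The 8 natural killer cell markers summed to between 6.48 and 8.20 FPKM in control and between 4.17 and 4.40 FPKM in knockout samples. Of the 6 that were tested 2 fell, beside the same 21.6%, and Prf1 and Eomes were below the filter. Of 5 plasmacytoid dendritic cell markers 3 were tested and none was called, beside 43.5% of all tested genes. Siglech and Ccr9 were below the filter. Bst2, which is in this list too, makes up most of the sum of the list. No defining marker of these 3 lists was at 0 in all samples.

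**Figure D5:**
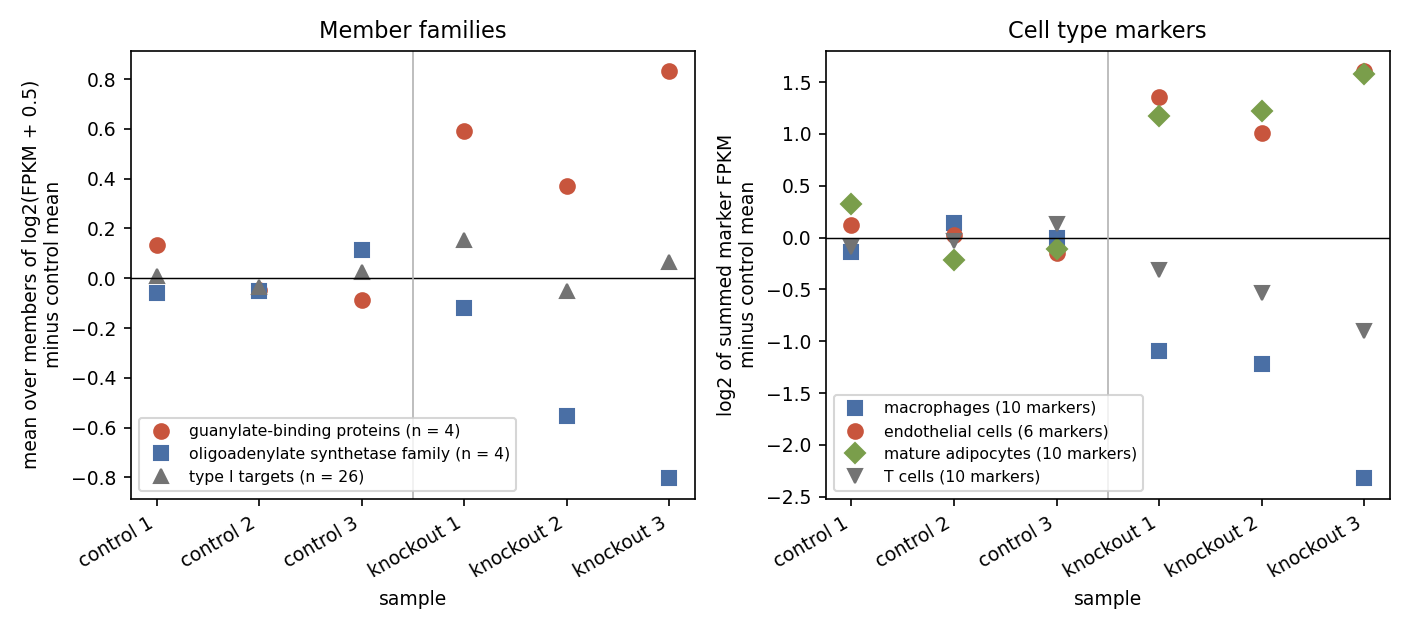
Left, the mean over the 4 guanylate-binding proteins (red), the 4 oligoadenylate synthetase genes (blue) and the 26 type I targets (grey) of log2(FPKM + 0.5) minus the control mean, in each sample. Right, the log2 of the summed FPKM of 4 cell type marker lists minus the control mean; the guanylate-binding proteins reach 0.59, 0.37 and 0.83 and the oligoadenylate synthetase genes −0.12, −0.55 and −0.80 in knockout replicates 1, 2 and 3.

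The mean deviation of the 4 guanylate-binding proteins from the control mean lay between −0.09 and 0.13 on the log2 scale in control samples and between 0.37 and 0.83 in knockout samples. That of the 4 oligoadenylate synthetase genes lay between −0.06 and 0.11 in control samples and between −0.80 and −0.12 in knockout samples, with Oas1a and Oasl1 below 0 in all 3 knockout samples but Oas2 at 0.43, −0.04 and 0.12 and Oasl2 at 0.09, −0.26 and −0.19 in knockout replicates 1, 2 and 3. That of the 26 type I targets lay between −0.04 and 0.03 in control samples and at 0.15, −0.05 and 0.06 in knockout replicates 1, 2 and 3. Knockout replicate 2 was below the other two knockout samples for the guanylate-binding proteins and for the type I targets. Without it 14 of the 36 genes were called higher, beside 2716 of the 14383 tested genes. In the same fit 3 of the 11 called members lost their call. Replicate 2 was singled out for its low values, and 14 was the highest such count among the 6 fits that left out 1 sample. Isg15 was among the 14, at a limma adjusted p of 0.0276, and was called in only 1 of the 6 fits that left out 1 sample.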

How the data were processed

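The 6 libraries, 3 control and 3 knockout, were prepared from total RNA with a NEBNext Ultra kit, per the labels. CASAVA, FastQC, STAR 2.5, HTSeq 0.6.1 and the build mm10 are named per the submitters' processing notes. The sources used here give no strand setting, annotation release or filter. The deposited table gives FPKM per gene and sample, per the file headers. The authors' FPKM times gene length sums to the same total in each sample. In each sample 100% of values above 0 were whole reads within 0.01 of a read, which gave the depth. On a 2 kb gene 3 reads correspond to 0.0489 to 0.0594 FPKM, which covers counting error only.

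Genes at 0.5 FPKM or more in 3 or more samples were fitted on log2(FPKM + 0.5) in R 4.3.3 by limma 3.58.1 and statmod 1.5.0, using trend and robust moderation, two-sided, and p-values were adjusted by Benjamini-Hochberg over the 14383 genes tested. Fold changes on this scale understate changes of low genes. Called means an adjusted p under 0.05, and rose and fell are used of called genes only. The procedure was tested on simulated data. Alternatives were median-of-ratios scaling, pseudocounts of 0.1 and 1, a filter at 1 FPKM, no filter, limma-voom on the recovered reads, a block for the replicate number, leaving out each sample, knockout replicate 3 and control replicate 2 left out together, and limma treat at 1.5-fold.

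The labels do not state that the samples are separate animals, so the p-values reflect only how these samples spread, which may be technical. Replicates differed by more than counting noise (chi-square per degree of freedom 15.5 to 98.1). The members and lists were chosen with earlier results of these data known. All 36 members are named; of each group, values in every sample are given for the 4 with the smallest p and the most abundant, and for others that help to follow a family. Of each other pathway list up to 3 called genes with the smallest p are named, or the 2 most abundant, with Ifng and Ifnb1 in any case; a few more were named after their values were seen, and 1 gene of the rule is not reported here. Of 225 list entries 223 were found; Gbp10 and Gbp2b had no row of their own. Names and overlaps come from GENCODE M21 (GRCm38), and shared sequence is the share of 50-base exon words found in another gene. Through the identifier 27 symbols stored as dates were restored. Python 3.11.15, numpy 2.4.6, pandas 2.3.3 and matplotlib 3.10.9 were used.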

Additional observations from a re-analysis of the deposited data

How the results depend on the processing

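Counts of called genes are given as higher and lower. The pseudocounts, the filter at 1 FPKM and limma-voom on the recovered reads kept every count within 1.5 times of 7 and 4 for the 36 members, 4 and 1 for the GTPases, 3 and 3 for the type I targets, 16 and 26 for the wider pathway and 3147 and 3106 for all tested genes. With median-of-ratios scaling the GTPases had 0 lower. Without a filter the members had 2 lower and the GTPases 2 higher and 0 lower. Without knockout replicate 3 and control replicate 2 the members had 3 and 2 and the GTPases 1 and 0. With limma treat, which asks for a change beyond 1.5-fold, 39 and 17 genes were called, and 0 and 0 of the members, the GTPases, the type I targets and the wider pathway.

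With 1 sample left out, the members had 3 to 14 higher and 0 to 4 lower, the GTPases 1 to 4 and 0 to 1, the type I targets 2 to 9 and 0 to 3, the wider pathway 7 to 19 and 13 to 30, and all tested genes 1897 to 3063 and 1324 to 3064. The lowest totals came without control replicate 2 (3371 called, of which 60.7% higher, against 50.3% with all samples) and without control replicate 3 (3456). Of the 11 called members, Usp18, Parp9 and Gbp2 (3) were called in all 6 of these fits. The sign of 34 of the 36 members was the same in all 15 alternatives, Ifih1 and Stat2, which were not called, being the exceptions.

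Same-numbered samples had correlations of −0.24, 0.03 and −0.18 in their deviations from the group means, and differently numbered samples of −0.08 to 0.23. Deviations of 3 samples from their own mean depend on each other, so these values cannot decide whether the numbers mark pairs. With the replicate block the members had 4 and 2, the GTPases 2 and 0, the type I targets 2 and 2, the wider pathway 12 and 21 and all tested genes 2270 and 2311 called higher and lower. Depth limited the interferon ligands, whose reads were too few to compare.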
